A study of Homo sapiens with 8 samples.

Results

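The replication-independent histone variants are 9 genes, H2AZ1, H2AZ2, H3-3A, H3-3B, MACROH2A1, MACROH2A2, H2AX, H1-10 and CENPA. They were chosen by name from the 57500 genes of the count table, by matching each Ensembl identifier to its GENCODE symbol, and all 9 passed the filter on low counts that left 19171 genes to test. RNA was sequenced from HEK293T cells, a human embryonic kidney line that expresses SV40 large T antigen, and the sources used here do not say whether polyadenylated RNA was selected for the libraries. All cells were of this line, with no genetic change between groups. In 4 libraries the cells had received vehicle (Control), and in 4 they had received DZNep at 100 uM, both for 48 h. DZNep, 3-deazaneplanocin A, inhibits S-adenosylhomocysteine hydrolase, and the by-product that then accumulates slows methyltransferases that use S-adenosylmethionine. The medium was DMEM per the labels and RPMI per the methods of the study.

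Most histone mRNAs are made only in S phase from clustered genes without introns, and they end in a stem-loop in place of a poly(A) tail. Replication-independent variants come from lone genes that are also transcribed outside S phase, mostly as polyadenylated mRNAs, and dedicated chaperones and remodellers place their proteins in chromatin. H2A.Z marks promoters and enhancers, H3.3 replaces H3 at active genes and at repeats, CENP-A defines the centromere, macroH2A carries a large macrodomain and is found in repressed chromatin, H2AX is phosphorylated around DNA breaks, and H1-10 (H1X) is a linker histone. Here mRNA was measured, and fewer transcripts per cell cannot be told apart from fewer cells that express a gene.

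The members of each pair of paralogs encode near-identical or related proteins from different mRNA sequences, which is what allows their reads to be counted apart. Over the whole coding sequence of the Ensembl canonical transcripts in GENCODE v44, H2AZ1 and H2AZ2 (both 387 bases) were 80.4% identical, H3-3A and H3-3B (both 411 bases) 78.6%, and MACROH2A1 and MACROH2A2 (both 1119 bases) 69.8%. The longest run that the transcripts of a pair shared was 23 bases for H2A.Z, 14 for H3.3 and 17 for macroH2A. The first 60 coding bases of the closer pairs are shown from the start codon, 5′ to 3′, with the bases that differ between the paralogs in capitals, 12 for H2A.Z and 13 for H3.3.
H2AZ1: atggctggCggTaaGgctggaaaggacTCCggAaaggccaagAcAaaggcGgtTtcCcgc
H2AZ2: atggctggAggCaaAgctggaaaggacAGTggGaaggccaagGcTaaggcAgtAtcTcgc
H3-3A: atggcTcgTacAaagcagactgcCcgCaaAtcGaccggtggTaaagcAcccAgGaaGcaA
H3-3B: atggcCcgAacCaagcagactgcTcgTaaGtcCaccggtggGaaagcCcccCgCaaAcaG

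H2AX stands between the replication-dependent and the independent genes, since its mRNA can end in a stem-loop or run on to a poly(A) site. The consensus of the histone stem-loop, a stem closed by GG and CC around a pyrimidine-rich loop, was searched on the sense strand downstream of the stop codon of canonical transcripts and was found in H2AX alone of the 9 variants and in 65 of 65 replication-dependent histone genes. In H2AX it began 49 bases after the stop codon, in the single exon of the gene. The stem-loop and its flanks, 28 bases at chr11:119094892-119094919 of GRCh38 on the minus strand, are shown with the stem and loop in capitals.
H2AX stem-loop: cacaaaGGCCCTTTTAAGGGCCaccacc

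Promoter windows of the RefSeq table for GRCh38.p14 were matched to all 9 genes, in 13 windows that each ran from 250 bases before a transcription start. They were searched on both strands for CCAAT, the box bound by NF-Y, for TTTGAA, the core of the cell cycle genes homology region, and for TATAAA, the TATA box, and no 2 sites in these windows overlapped. CCAAT was present in 34.6% of 35116 RefSeq promoters, TTTGAA in 15.2% and TATAAA in 11.5%, while CCAAT together with TTTGAA was present in 5.9%. CCAAT with TTTGAA was found in the windows of CENPA, H2AZ1 and H2AX. The window of MACROH2A2, 1 window of MACROH2A1 and 1 of H3-3A held none of these letters. Shown here, from 250 bases before to 20 after the start, are 4 of these promoters. CENPA and H2AZ1 hold CCAAT boxes (ATTGG where reversed) and TTTGAA, to which H2AZ1 adds TATAAA. H1-10 holds TATAAA alone, and MACROH2A2 holds none. Capitals mark the sites. The windows are chr2:26785806-26786075 on the plus strand, chr4:99950256-99950525 and chr3:129316267-129316536 on the minus strand, and chr10:70052596-70052865 on the plus strand, in this order.
CENPA: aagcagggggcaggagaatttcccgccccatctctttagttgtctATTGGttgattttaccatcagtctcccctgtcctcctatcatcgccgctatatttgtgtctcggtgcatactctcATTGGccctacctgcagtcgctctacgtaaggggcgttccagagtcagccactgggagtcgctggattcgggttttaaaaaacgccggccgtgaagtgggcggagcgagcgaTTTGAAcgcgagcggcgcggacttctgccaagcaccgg
H2AZ1: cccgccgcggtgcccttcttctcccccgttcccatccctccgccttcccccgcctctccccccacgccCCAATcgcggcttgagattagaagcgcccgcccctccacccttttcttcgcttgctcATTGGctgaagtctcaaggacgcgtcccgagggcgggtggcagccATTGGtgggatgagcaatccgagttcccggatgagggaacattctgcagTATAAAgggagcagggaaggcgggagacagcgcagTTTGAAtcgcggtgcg
H1-10: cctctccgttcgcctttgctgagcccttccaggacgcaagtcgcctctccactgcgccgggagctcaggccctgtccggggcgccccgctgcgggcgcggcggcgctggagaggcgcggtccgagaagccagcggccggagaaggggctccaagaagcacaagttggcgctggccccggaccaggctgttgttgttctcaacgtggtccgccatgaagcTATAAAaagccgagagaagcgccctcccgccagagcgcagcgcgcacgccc
MACROH2A2: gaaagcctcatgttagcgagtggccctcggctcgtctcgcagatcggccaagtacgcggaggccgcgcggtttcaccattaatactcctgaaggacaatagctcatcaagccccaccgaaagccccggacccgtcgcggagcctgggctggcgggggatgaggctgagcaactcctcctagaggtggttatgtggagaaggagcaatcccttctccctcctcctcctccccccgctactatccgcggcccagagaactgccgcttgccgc

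The 8 libraries held 25043058 to 44902779 counts, and 413 to 37023 of them per library fell on each variant. Mitochondrial transcripts took 7.76% and 13.7% of the counts of Control replicates 1 and 4 and 7.04% and 10.1% of those of DZNep replicates 1 and 4, against 3.02% to 4.44% in the other 4 libraries. All 8 genes taken as markers of HEK293T (VIM, KRT8, KRT18, PAX2, LHX1, NEFL, NEFM and NPM1) were detected, with a summed level of 3841 to 5182 counts-per-million (CPM) in Control and 2691 to 3666 in DZNep. NPM1, which is also on the list of CENP-A deposition and the centromere below, made up 58.7% to 79.8% of that sum, so the sum mostly follows this gene. Of the 8, KRT8 was called higher and LHX1 lower (log2 fold changes of 2.44 ± 0.28 and -1.43 ± 0.33, edgeR adjusted p = 0.000133 and 0.00593), while KRT18 rose and PAX2 and NPM1 fell by less than the fold for a call. Of 13 markers of other cell types, HBB and UMOD were at 0 in every library and the sum of all was 86.2 to 153 CPM in Control and 83.5 to 158 in DZNep. Of that list LUM rose and ACTA2 fell. CDH5 passed the filter only through the DZNep libraries, with 11.8 to 19.1 normalized counts there, 3.08 in Control replicate 1 and 0 in the other 3 Control libraries, where a count of 0 allows up to 3 counts. The part of these markers in the results was not tested. All levels that follow are normalized counts, the deposited counts divided by a size factor per library, unless another scale is named.

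DZNep-treated cells held more H1-10 mRNA and less MACROH2A2 mRNA, with smaller increases in H2AZ2, H3-3B and CENPA. A gene was said to rise or fall where the adjusted p of edgeR's quasi-likelihood test (Benjamini-Hochberg over all 19171 genes) was under 0.05, and it was called where its log2 fold change, DZNep over Control, was also beyond 1 in either direction. By both criteria 1 of 9 variants was called higher, where 10.6% of all genes were, and 1 was called lower, where 13.5% of all genes were. By the adjusted p alone 4 variants rose and 1 fell, where 19.1% and 21.8% of all genes did. With the replicate number as a block 6 rose and 2 fell, where 28.8% and 30.2% of all genes did. The block, and the pairs of libraries named below, assume that libraries of the same number belong together. The DZNep libraries lay wholly above the Control libraries for 3 variants and wholly below for 1, where 19.5% and 19.4% of all genes did so. The median log2 fold change was 0.49 over the 9 variants and -0.03 over all genes tested.

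**Figure D1:**
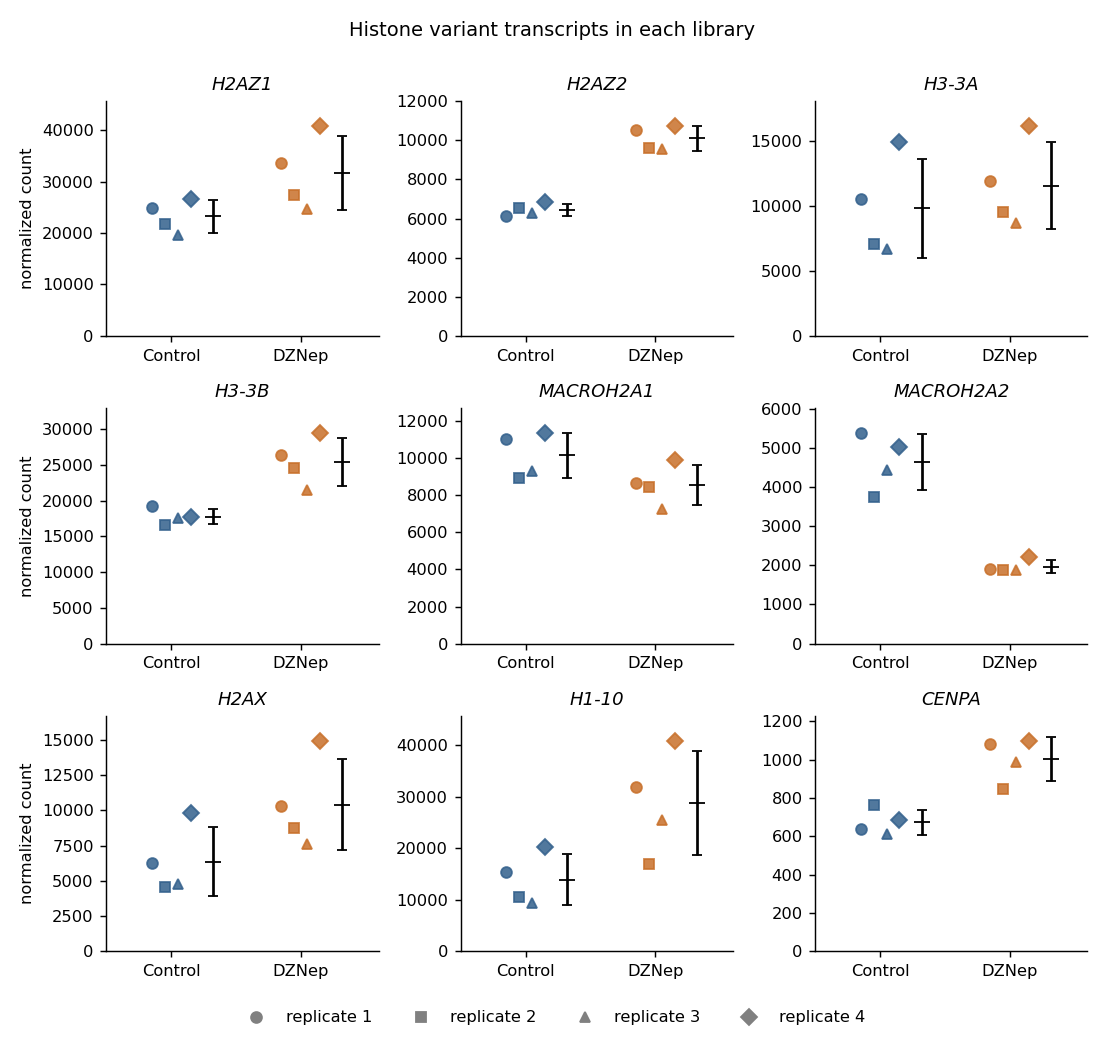
Normalized count (vertical axis, starting at 0) of the 9 variants in the 4 Control and 4 DZNep libraries, with a symbol per replicate number and the mean and SD as a bar. MACROH2A2 in DZNep sits between 1879 and 2206, below all Control libraries. Replicates 1 and 4 are the highest of both groups for every variant except H2AZ2 and CENPA, for which they are so in DZNep only.

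MACROH2A2 and MACROH2A1 encode macroH2A2 and macroH2A1, H2A variants with a C-terminal macrodomain. MACROH2A2 (chromosome 10, 70052544 to 70112282, plus strand) had normalized counts of 5368, 3742, 4422 and 5031 in Control replicates 1 to 4 and of 1905, 1885, 1879 and 2206 in DZNep replicates 1 to 4. The groups did not overlap, and all 4 DZNep libraries were under the lowest Control library. MACROH2A2 fell and was called, with a log2 fold change of -1.26 ± 0.15 (SE, n = 4 per group) and an edgeR adjusted p of 0.000166. MACROH2A1 (chromosome 5, 135334381 to 135399914, minus strand) had 11042, 8945, 9316 and 11337 in Control and 8638, 8441, 7239 and 9891 in DZNep. Here the groups overlapped, although each DZNep library was under the Control library of its number. Its log2 fold change was -0.28 ± 0.16 (adjusted p = 0.183 in edgeR), and with the replicate block MACROH2A1 fell, with an adjusted p of 0.0461.

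Within a library the ratio of the counts of MACROH2A1 to MACROH2A2 needs no scaling between libraries. It was 2.06, 2.39, 2.11 and 2.25 in Control and 4.53, 4.48, 3.85 and 4.48 in DZNep. Each DZNep ratio was above all Control ratios. On the log2 scale the mean ratio went from 1.14 ± 0.10 to 2.11 ± 0.11 (SD, n = 4), a difference of 0.98 with a two-sided exact permutation p of 0.0286, the smallest that 4 against 4 libraries can give, and 0.0857 after adjustment over the 3 paralog pairs. A macroH2A ratio at the smallest possible p therefore did not pass the correction.

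The list named macroH2A partners held 11 genes, all tested. Some of them encode macrodomain hydrolases, whose link to macroH2A was not tested. Of the 11 genes 3 were called lower and 0 higher, against 13.5% and 10.6% of all genes. By the adjusted p alone 2 rose and 4 fell, against 19.1% and 21.8%. With the block 4 rose and 4 fell, against 28.8% and 30.2%. MACROD1, a macrodomain hydrolase that removes ADP-ribose from proteins, had a log2 fold change of -2.31 ± 0.30 (edgeR adjusted p = 0.000262). HELLS, a chromatin remodeller, had -1.29 ± 0.19 (edgeR adjusted p = 0.000531), and SUPT16H, a subunit of the histone chaperone FACT, had -1.06 ± 0.25 (edgeR adjusted p = 0.00631). The median of the list was -0.11 on the log2 scale.

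The H2A.Z genes H2AZ1 and H2AZ2 both had higher means in DZNep. H2AZ2 (chromosome 7, 44826791 to 44848087, minus strand) had normalized counts of 6108, 6554, 6312 and 6834 in Control and 10509, 9589, 9550 and 10746 in DZNep. The libraries of each group lay close together and the groups did not overlap. H2AZ2 rose 1.57-fold, with a log2 fold change of 0.62 ± 0.13 and an edgeR adjusted p of 0.00368, below the fold needed for a call. H2AZ1 (chromosome 4, 99948086 to 99950355, minus strand) had 24935, 21698, 19607 and 26626 in Control and 33577, 27370, 24627 and 40829 in DZNep. DZNep replicate 3 was below Control replicates 1 and 4, so that the groups overlapped, while each DZNep library was above the Control library of its number. The log2 fold change of H2AZ1 was 0.42 ± 0.20 with an edgeR adjusted p of 0.120, and with the replicate block H2AZ1 rose (0.40, adjusted p = 0.00722).

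The ratio of H2AZ1 to H2AZ2 counts was 4.08, 3.31, 3.11 and 3.90 in Control and 3.20, 2.85, 2.58 and 3.80 in DZNep, lower in DZNep in 4 of 4 pairs. The groups overlapped, and the mean log2 ratio of 1.84 ± 0.19 and 1.62 ± 0.24 (SD, n = 4) differed by -0.22, with an exact permutation p of 0.20 (adjusted over 3 pairs, 0.30). A difference between the H2A.Z paralogs was not shown.

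Factors that place or remove H2A.Z numbered 22, all tested. Of these 2 were called higher and 1 lower, against 10.6% and 13.5% of all genes. By the adjusted p alone 8 rose and 3 fell, against 19.1% and 21.8%, with a median log2 fold change of 0.14. Without Control replicate 3 the called genes of this list numbered 5. SRCAP, the ATPase that exchanges H2A for H2A.Z, had normalized counts of 331 to 942 in Control and 921 to 2808 in DZNep, which overlapped narrowly. It rose by a log2 fold change of 1.69 ± 0.40 (edgeR adjusted p = 0.00692). ING3, a subunit of the TIP60 acetyltransferase complex, rose by 1.19 ± 0.15 on the log2 scale (edgeR adjusted p = 0.000187). RUVBL1, an AAA+ ATPase shared by the SRCAP, TIP60 and INO80 complexes, fell by 1.04 on the log2 scale (edgeR adjusted p = 0.000451). ANP32E, the chaperone that removes H2A.Z, had a log2 fold change of -0.36 ± 0.13 (edgeR adjusted p = 0.0484).

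H3-3A and H3-3B encode the same H3.3 protein. H3-3B (chromosome 17, 75776434 to 75785893, minus strand) had normalized counts of 19221, 16573, 17634 and 17667 in Control and 26404, 24579, 21465 and 29424 in DZNep. The groups did not overlap, and the DZNep libraries were spread more widely than the Control libraries. H3-3B rose 1.43-fold (log2 fold change 0.49 ± 0.15, edgeR adjusted p = 0.0267). This result did not hold without some libraries: the edgeR adjusted p was 0.0541 without Control replicate 2, 0.0631 without Control replicate 3, 0.0696 without DZNep replicate 1 and 0.0611 without DZNep replicate 4, with log2 fold changes of 0.42 to 0.57 over all 8 libraries left out in turn.

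H3-3A (chromosome 1, 226061851 to 226072019, plus strand) had 10545, 7105, 6680 and 14901 normalized counts in Control and 11890, 9558, 8659 and 16166 in DZNep. The groups overlapped over most of their range, and in both groups replicate 4 was highest and replicate 1 next. These are the libraries with the higher mitochondrial shares. With mitochondrial genes left out of the library sizes the log2 fold change of H3-3A was 0.21, as it was with them (0.21 ± 0.29, edgeR adjusted p = 0.597). Libraries were scaled again in that fit and both groups held such libraries, so it could not test the part of the mitochondrial share. The change in H3-3A was smaller than the spread between libraries, although 4 of 4 pairs were higher in DZNep.

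The ratio of H3-3A to H3-3B counts was 0.549, 0.429, 0.379 and 0.843 in Control and 0.450, 0.389, 0.403 and 0.549 in DZNep. Control replicate 4 stood above the rest, the groups overlapped, and the log2 ratio differed by -0.24 with an exact permutation p of 0.543 (0.543 after adjustment). Pseudogenes may bear on this pair. The 47 genes named as H3 pseudogenes, of which 2 passed the filter, held counts equal to 6.14% to 15.9% of those of H3-3A and H3-3B together. This was 7.80% to 15.9% in Control and 6.14% to 10.7% in DZNep. Whether these reads came from H3-3A or H3-3B was not tested. The 8 H2A.Z pseudogenes held at most 0.0674% of the counts of H2AZ1 and H2AZ2.

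Of 9 genes that place H3.3, 2 were called lower and 0 higher, against 13.5% and 10.6% of all genes. By the adjusted p alone 1 rose (4 with the block) and 2 fell, against 19.1% (28.8%) and 21.8%. The median log2 fold change was 0.14. ATRX, the remodeller that acts with DAXX at repeats and telomeres, had normalized counts of 9490, 4095, 4964 and 11468 in Control and 1890, 2044, 2052 and 2902 in DZNep. All DZNep libraries were below all Control libraries, in which replicates 1 and 4 were again highest, and the log2 fold change was -1.79 ± 0.32 (edgeR adjusted p = 0.00164). ASF1B, a chaperone of H3 and H4 that serves both the replication-coupled and the independent route, had -1.61 ± 0.17 (edgeR adjusted p = 7.26e-05), against 0.14 ± 0.16 (adjusted p = 0.506) for its paralog ASF1A. DAXX rose without reaching the fold for a call, with a log2 fold change of 0.58 ± 0.13 (edgeR adjusted p = 0.00606), and HIRA, the core of the transcription-linked H3.3 complex, had -0.27 ± 0.15 (adjusted p = 0.176).

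CENPA (chromosome 2, 26764289 to 26801067, plus strand), which encodes the centromeric H3 variant CENP-A, was the least counted of the 9, with 413 to 1195 raw counts per library. Its normalized counts were 637, 762, 611 and 685 in Control and 1084, 846, 990 and 1097 in DZNep. All DZNep libraries were above all Control libraries, and replicate pair 2 differed least. CENPA rose 1.49-fold, with a log2 fold change of 0.55 ± 0.14 and an edgeR adjusted p of 0.0122, and stayed under an adjusted p of 0.05 in all 17 other settings. CENPA shares 138 bases of exon with SLC35F6 on the same strand, and SLC35F6 had a log2 fold change of -0.07 ± 0.14 (adjusted p = 0.697).

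Among 20 genes of CENP-A deposition and the centromere, 3 were called lower and 0 higher, against 13.5% and 10.6% of all genes. By the adjusted p alone 2 rose and 8 fell (4 and 9 with the block), against 19.1% and 21.8% (28.8% and 30.2%). CENPH, CENPU and CENPW, all of the constitutive centromere-associated network, were the 3 called. CENPH had 3003, 2036, 2818 and 3095 normalized counts in Control and 590, 530, 585 and 642 in DZNep. The groups lay far apart, and CENPH fell by 2.25 on the log2 scale (SE 0.17, edgeR adjusted p = 1.31e-05). CENPU fell by 1.10 (edgeR adjusted p = 0.00492) and CENPW by 1.09 (edgeR adjusted p = 0.0408) on the same scale. The CENPW groups overlapped, at 1583 to 5024 normalized counts in Control and 940 to 2018 in DZNep. With the block its log2 fold change was -0.98, short of a call. HJURP, the chaperone dedicated to CENP-A, was 1 of the 2 that rose, by 0.61 ± 0.17 on the log2 scale (edgeR adjusted p = 0.0172). The median over the list was -0.12. The count of called genes in this list was 1 without Control replicate 1 and 5 without Control replicate 2, Control replicate 3 or DZNep replicate 4.

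H2AX (chromosome 11, 119093874 to 119095465, minus strand) had 6297, 4542, 4811 and 9826 normalized counts in Control and 10322, 8775, 7600 and 14921 in DZNep. Control replicate 4 was above DZNep replicates 2 and 3, so the groups overlapped, and replicates 4 and 1, with the higher mitochondrial shares, were the highest in each group. The log2 fold change was 0.68 ± 0.29 (edgeR adjusted p = 0.0843), and 0.68 with mitochondrial genes left out of the library sizes. The part of the mitochondrial share was not tested by that setting. H2AX was higher in DZNep in 4 of 4 pairs, by 0.60 to 0.95 on the log2 scale. With the replicate block H2AX rose (0.70, adjusted p = 9.29e-05), and without Control replicate 4 it rose by 0.96 with an edgeR adjusted p of 0.0113.

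In the list of 17 genes that phosphorylate, dephosphorylate or read H2AX, 2 were called lower and 0 higher. Of all genes 13.5% and 10.6% were. By the adjusted p alone 4 rose and 3 fell (7 and 5 with the block), against 19.1% and 21.8% (28.8% and 30.2%). ATR, a kinase that phosphorylates H2AX at stalled replication forks, had a log2 fold change of -2.07 ± 0.29 (edgeR adjusted p = 0.000396). ATM, the kinase that acts at double-strand breaks, fell by 0.94 on the log2 scale (edgeR adjusted p = 0.00139). EYA2, of a family of tyrosine phosphatases, had -1.68 ± 0.17 (edgeR adjusted p = 5.83e-05), while its relative EYA1 rose by 0.84 ± 0.18 (edgeR adjusted p = 0.0046). The reader MDC1 had 0.27 ± 0.26 (adjusted p = 0.428).

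H1-10 (chromosome 3, 129314771 to 129316286, minus strand) encodes linker histone H1X from a gene without introns. It had 15331, 10532, 9380 and 20216 normalized counts in Control and 31957, 17004, 25518 and 40842 in DZNep. DZNep replicate 2 was below Control replicate 4, so that the groups overlapped, although H1-10 was higher in DZNep in 4 of 4 pairs. It was called higher, with a 2.08-fold higher mean and a log2 fold change of 1.03 ± 0.31 (edgeR adjusted p = 0.0239). This call was close to both limits. The log2 fold change was 0.91 without Control replicate 2 (edgeR adjusted p = 0.0481), 0.88 without Control replicate 3 (0.0629), 1.00 without DZNep replicate 1 (0.0571) and 0.82 without DZNep replicate 4 (0.0570). The libraries with the higher mitochondrial shares were the highest of each group for this gene too. The log2 fold change was 1.03 with mitochondrial genes left out, a setting that could not test the part of that share.

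**Figure D2:**
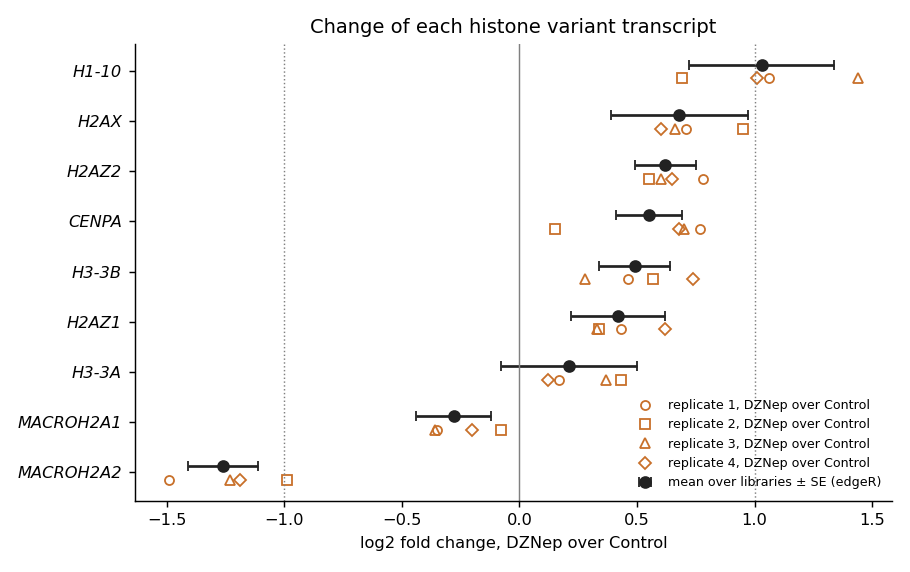
Change of each variant (log2 fold change, DZNep over Control, horizontal axis), with the edgeR estimate and its SE as a black point and bar and the log2 ratio of the normalized counts of each same-numbered pair of libraries as an open symbol. Dotted lines mark the fold needed for a call, which the estimates of H1-10 (1.03) and MACROH2A2 (-1.26) pass.

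Other variants outside the chosen 9 were mostly too low to test. Of 17 counted, 4 passed the filter. Of these 1 rose (2 with the block) and 1 fell, against 19.1% (28.8%) and 21.8% of all genes. H2AJ fell by 0.84 on the log2 scale (SE 0.24, edgeR adjusted p = 0.0165). H2BC26, which is also on the list of replication-dependent histones by its symbol, was called higher, from 41.0 ± 8.3 to 174 ± 30 normalized counts (SD, n = 4, log2 fold change 2.06 ± 0.24, edgeR adjusted p = 0.000122). H4C16, also on the replication-dependent list by its symbol, had a log2 fold change of -0.08 ± 0.26.

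The replication-dependent histones had low counts beside the variants. Of 65 such genes, 40 passed the filter on low counts, 12 of them only through the DZNep libraries, in which they were high, whereas all 9 variants passed it in Control as well. The 29 called higher (0 lower) thus describe genes that the filter let in, in part for being high in DZNep, and are not compared with the variants. H3C10 had 94.0, 75.9, 57.3 and 104 normalized counts in Control and 1244, 1171, 866 and 1336 in DZNep (log2 fold change 3.78 ± 0.23, edgeR adjusted p = 5.16e-06). H2AC6 had a log2 fold change of 3.61 ± 0.18 (edgeR adjusted p = 2.27e-06). H3C13 was near the floor in Control, with 2.15 to 10.8 normalized counts against 48.4 to 64.4 in DZNep. Sums over all genes of a family, tested or not, do not depend on the filter. The summed normalized counts of 11 replication-dependent H3 genes went from 211 ± 35 to 1528 ± 213 (SD, n = 4), a ratio of 7.26, while those of the other 8 H3 genes went from 28259 ± 4292 to 38048 ± 6682, a ratio of 1.35. Among H2A genes the ratios were 2.74 for 15 replication-dependent genes and 1.22 for 12 others, and among H1 genes 7.60 for 6 and 1.77 for 4. How much of a stem-loop mRNA is captured depends on the kind of library, so these sums give the share of counts, not of mRNA molecules.

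The share of a family's counts taken by its variants was computed in each library. H2AZ1 and H2AZ2 took 55.5%, 60.1%, 56.5% and 53.6% of H2A counts in Control and 64.2%, 62.1%, 63.4% and 62.4% in DZNep. MACROH2A1 and MACROH2A2 took 29.4%, 27.0%, 30.0% and 26.2% in Control and 15.4%, 17.3%, 16.9% and 14.6% in DZNep. H3-3A and H3-3B took 97.1%, 96.2%, 96.8% and 97.3% of H3 counts in Control and 93.3%, 93.5%, 93.1% and 94.2% in DZNep. For these 3 shares the groups did not overlap. The H2A.Z and macroH2A shares are parts of the same H2A total, so they are not independent results. The H2A.Z share was higher by 6.57 percentage points, the macroH2A share was lower (-12.1 points) and the H3.3 share was lower (-3.31 points), each with an exact permutation p of 0.0286, the smallest possible, and 0.0571 after adjustment over 6 shares. No share passed the correction. Replication-dependent genes took a mean of 0.740% of H3 counts in Control and 3.88% in DZNep. The mean normalized counts of H3-3A and H3-3B were themselves higher in DZNep, so the lower H3.3 share is not a lower H3.3 mRNA count.

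The other shares overlapped between groups. H2AX took 11.8% ± 2.7 of H2A counts in Control and 15.5% ± 1.8 in DZNep (SD, n = 4, exact permutation p = 0.114, adjusted 0.171). CENPA took 2.41% ± 0.49 and 2.57% ± 0.37 of H3 counts (exact permutation p = 0.571, adjusted 0.686). H1-10 took 39.2%, 38.6%, 30.7% and 66.5% of H1 counts in Control and 52.2%, 35.5%, 45.3% and 58.0% in DZNep, with Control replicate 4 far above the other Control libraries (exact permutation p = 0.686, adjusted 0.686).

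**Figure D3:**
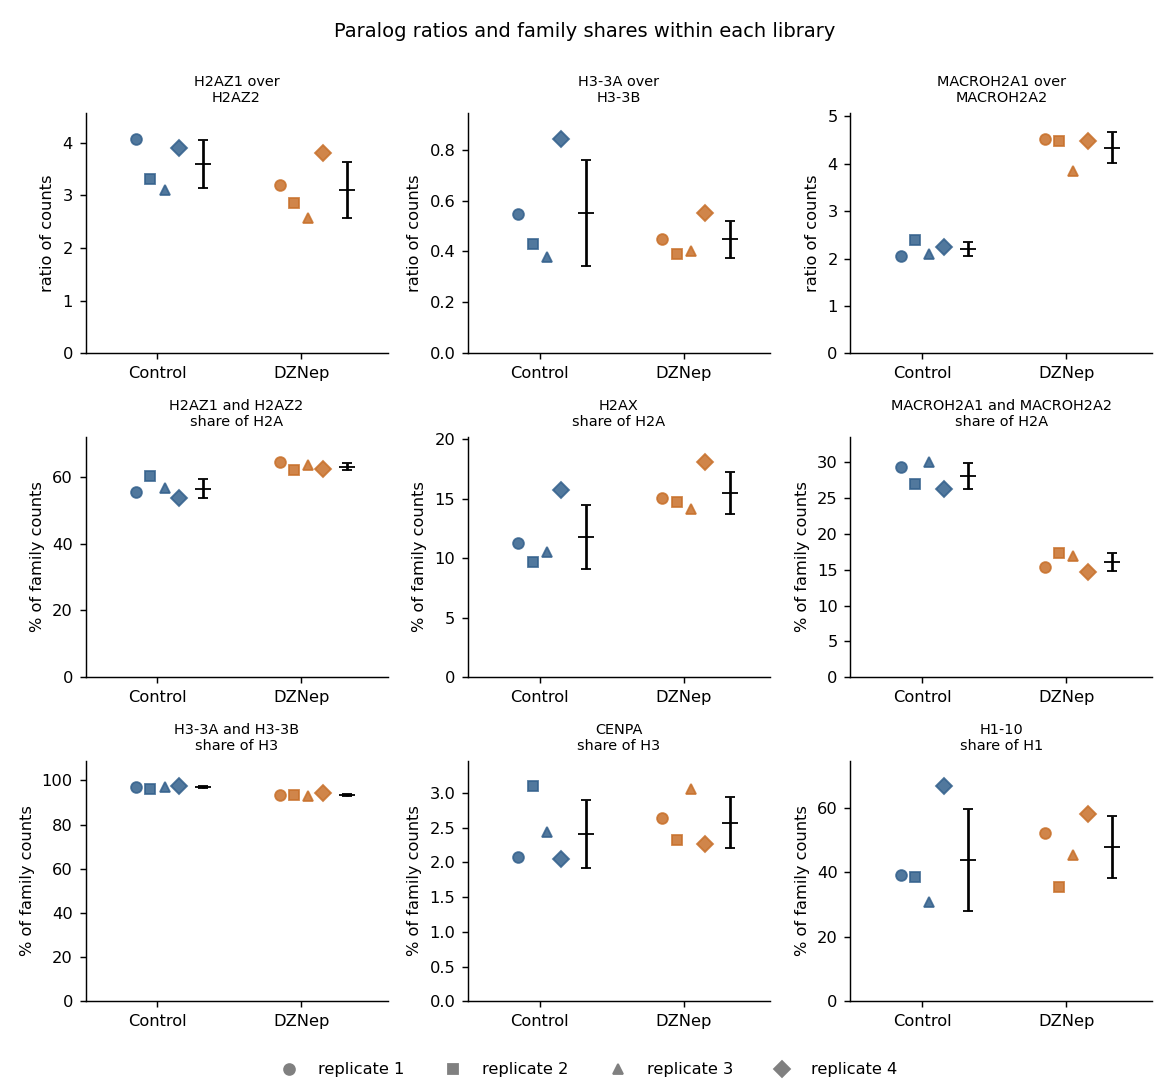
Ratio of the counts of paralogs (top row) and percent of a histone family's counts taken by variants (other rows) in each of 4 Control and 4 DZNep libraries, with the mean and SD as a bar and all vertical axes starting at 0. The macroH2A ratio lies between 2.06 and 2.39 in Control and between 3.85 and 4.53 in DZNep, and the H1-10 share overlaps between the groups.

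Levels of different genes were compared as CPM per kilobase of annotated exon. In Control the order was H2AZ1 (264 ± 17, SD, n = 4), H1-10 (232 ± 61), H2AX (101 ± 28), H3-3B (75.3 ± 7.5), H3-3A (65.0 ± 18.8), H2AZ2 (23.9 ± 1.8), MACROH2A1 (15.4 ± 1.0), CENPA (8.98 ± 1.14) and MACROH2A2 (8.01 ± 1.06). Neighbours whose Control libraries overlapped were H2AZ1 with H1-10, H2AX with H3-3B, H3-3B with H3-3A, and CENPA with MACROH2A2. In DZNep H1-10 (506 ± 149) stood first with H2AZ1 (371 ± 59) next, in overlapping ranges, and MACROH2A2 (3.53 ± 0.12) was last, below every library of MACROH2A1 (13.5 ± 0.8). CENPA (13.8 ± 1.3) and MACROH2A1 overlapped there. The order depended on the length used. Per kilobase of the canonical transcript, MACROH2A2 in Control was 62.1 ± 8.2 and CENPA 12.6 ± 1.6, so that CENPA was the lowest in both groups.

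**Figure D4:**
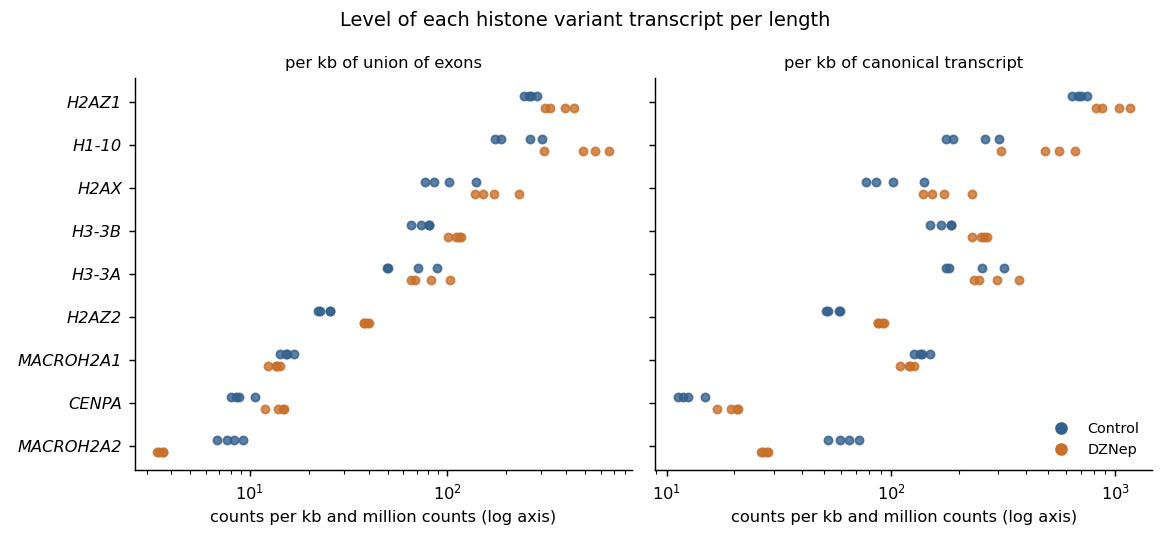
Level of each variant in every library (points) as CPM per kilobase on a log axis, with the length taken as the union of annotated exons (left) or as the canonical transcript (right). H2AZ1 is first in Control on both (264 and 692), while MACROH2A2 is last on the left (8.01) and above CENPA on the right (62.1 against 12.6).

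Cell cycle genes were read beside the variants, since H2AX and CENPA mRNA vary over the cycle. Over all genes 10.6% were called higher and 13.5% lower. By the adjusted p alone 19.1% rose and 21.8% fell, and with the block 28.8% and 30.2% did. Of 18 genes of G2 and M phase, 3 were called higher and 0 lower (8 rose and 0 fell by the adjusted p alone, 13 and 1 with the block), with a median log2 fold change of 0.52. PLK1, a mitotic kinase, rose by 1.46 ± 0.21 (edgeR adjusted p = 0.00043), CCNF, which encodes cyclin F, by 1.31 ± 0.20 (0.000572) and KIF20A, a mitotic kinesin, by 1.11 ± 0.23 (0.00367), all on the log2 scale. Of 18 genes of S phase 0 were called by the edgeR test, 1 rose and 4 fell by the adjusted p alone (2 and 7 with the block), and the median was -0.14. Among 10 genes of replication-coupled deposition, 2 rose and 2 fell by the adjusted p alone (3 and 4 with the block). CDAN1, which holds ASF1 in the cytoplasm, was called higher (log2 fold change 1.00 ± 0.14, edgeR adjusted p = 0.000372) and MMS22L, which acts at stalled forks, was called lower (-1.20 ± 0.13, edgeR adjusted p = 9.26e-05). The called genes of that list numbered 1 without Control replicate 1 or 3 or without DZNep replicate 2 or 3. The part of the cell cycle in the values of the variants was not tested.

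**Figure D5:**
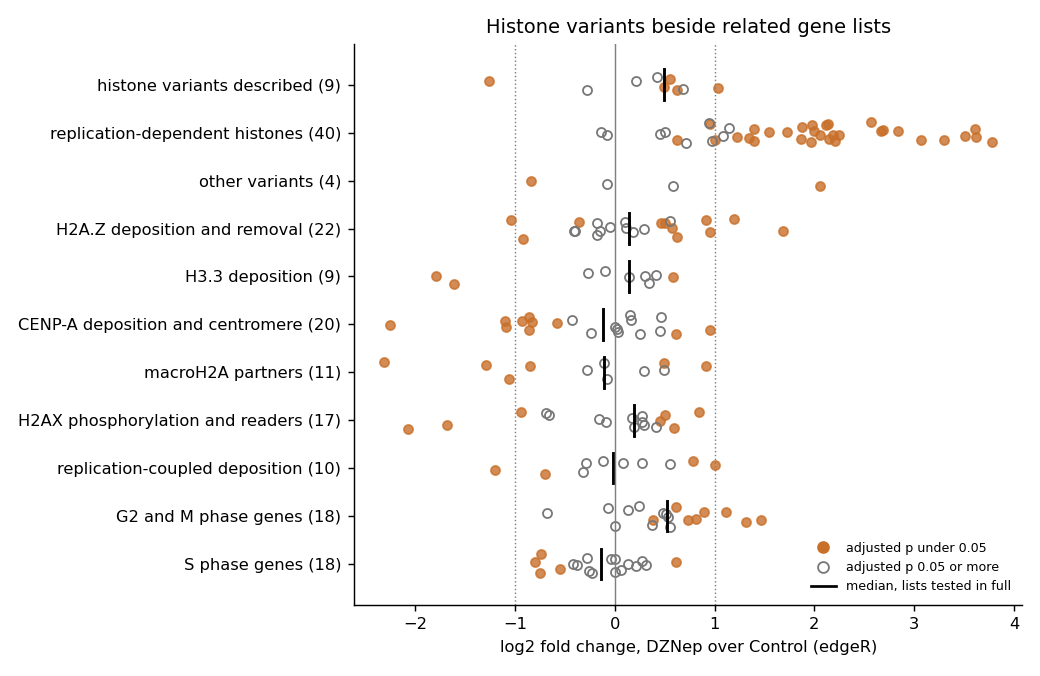
Log2 fold change (DZNep over Control, edgeR, horizontal axis) of every tested gene of the 9 variants and of 10 related lists, with the number tested in brackets, filled points where the adjusted p was under 0.05 and a bar at the median of each list that was tested in full. The medians are 0.49 for the variants and 0.52 for G2 and M phase genes, and no bar is drawn for the replication-dependent histones and the other variants, of which only some were tested.

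For each variant the most similar of 13232 other genes was the one whose log2 CPM over the 8 libraries had the highest Pearson correlation with it, a description of 8 points that share treatment and library. These were LAMTOR4 for H2AZ1 (r = 0.988), CDC5L for H2AZ2 (0.997), POP7 for H3-3A (0.994), RAMAC for H3-3B (0.994), THAP8 for MACROH2A1 (0.993), FAM216A for MACROH2A2 (0.999), TACC3 for H2AX (0.994), DEF6 for H1-10 (0.994) and CRIP3 for CENPA (0.981). FAM216A, the closest of all, had a log2 fold change of -2.41, against -1.26 for MACROH2A2.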

How the data were processed

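RNA was sequenced from 4 Control and 4 DZNep cultures of HEK293T. The authors trimmed reads with Trimmomatic 0.36, mapped these with STAR 2.5.2b against GRCh38, and used featureCounts (Subread 1.5.2) for unique reads in exons, so the deposited counts leave out reads that match several places. The annotation release and strandedness are not given in the sources used here. The deposited normalized signal table (19118 genes) equals the counts divided by 1 size factor per library, as DESeq2 makes it, and these factors scaled the normalized counts.

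Of the 57500 gene identifiers, 56410 matched a GENCODE v44 symbol. Groups came from the sample titles. All counts were fitted with edgeR 4.0.16 (TMM, filterByExpr, quasi-likelihood, Benjamini-Hochberg, no covariate) in R 4.3.3, checked on simulated data first. The SE of a log2 fold change was derived from that test, as its absolute value divided by the square root of the F statistic. Ratios and shares were tested by two-sided exact permutation (SciPy 1.17.1). Alternatives were DESeq2 1.42.0, limma 3.58.1, other scalings and filters, a replicate block, and libraries left out. Deviations of same-numbered libraries from their group means correlated at 0.136, 0.492, 0.429 and 0.673, and the same numbers were treated as pairs. Correlations between different numbers are not given. In both groups replicate 4 differed most from replicates 2 and 3. A pattern shared between groups can raise such correlations, so they do not show that the numbers mark true pairs. The study calls the replicates biological. Libraries of a group differed by more than sampling noise (chi-square per degree of freedom at least 26.9).

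The variants and the gene lists were chosen with earlier results of these data known. Named genes were the 9 variants, up to 3 called genes per list and direction, the most correlated gene of each variant, and genes that overlap or adjoin one. ATM, EYA1, MDC1, ANP32E, ASF1A, DAXX, HIRA, HJURP, H2AJ and H4C16 were named after their values were seen. Some genes that the rule would name are not reported here.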

Additional observations from a re-analysis of the deposited data

Results flagged for a closer look

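In 36 groups of 4 libraries the highest or lowest value was set against the rest by Dixon's test, which flags about 5% of groups by chance, and 2 groups stood out. DZNep replicate 4 had 2206 normalized counts of MACROH2A2, above the other DZNep libraries, which lay between 1879 and 1905. DZNep replicate 3 had a log2 ratio of MACROH2A1 to MACROH2A2 of 1.95, below the other 3 DZNep libraries. Both values stayed on the DZNep side of every Control library.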

How the results depend on the processing

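MACROH2A2, H2AZ2 and CENPA kept their direction and an adjusted p under 0.05 in all 17 other settings. The signs of all 9 log2 fold changes held in every setting. H2AZ1 rose with library sizes alone (0.49, edgeR adjusted p = 0.0318) and with the replicate block (0.40, adjusted p = 0.00722). MACROH2A1 fell with the block (-0.28, adjusted p = 0.0461). H2AX rose with DESeq2 (0.72, adjusted p = 0.0465), library sizes alone (0.77), no filter (0.72) and the block (0.70). H3-3B no longer passed without a filter (0.52, edgeR adjusted p = 0.0668). With each library left out in turn, log2 fold changes were 0.28 to 0.53 for H2AZ1, 0.42 to 0.57 for H3-3B, -0.35 to -0.20 for MACROH2A1, 0.46 to 0.96 for H2AX and 0.82 to 1.26 for H1-10. The variants called numbered 1 to 2 with a library left out, 5 without a fold threshold and 0 by glmTreat, a test against a fold of 1 on the log2 scale. The 10 related lists held 47 called genes (42 to 52 with a library left out), 86 without a fold threshold and 27 by glmTreat. Replication-dependent histones, which the filter admitted in part for being high in DZNep, made up 29, 31 and 21 of these. Of all 19171 genes tested, 10.6% were called higher and 13.5% lower, or 19.1% and 21.8% without a fold threshold. By glmTreat 942 of all genes were called higher and 1066 lower. Replication-dependent histones called numbered 29, or 18 with at least 10 counts in every library, where fewer genes are tested, and markers of other cell types 3, or 5 with DESeq2 or no filter. The block changed no other call of a variant by the adjusted p, and by both thresholds left each related list within 1 gene of its count. The CENPA share differed by -0.00471 to 0.385 points and the H1-10 share by -0.328 to 11.6 points with a library left out, which turned their direction. With 3 against 4 libraries no ratio or share could go below an exact permutation p of 0.0571, or of 0.125 with 4 pairs. Control levels per kilobase of the longest and of the canonical transcript were 319 and 692 for H2AZ1, 44.04 and 55.4 for H2AZ2, 133 and 232 for H3-3A, 166 and 171 for H3-3B, 23.9 and 137 for MACROH2A1, 31.0 and 62.1 for MACROH2A2, and 12.6 on both for CENPA. The canonical length and the setting without mitochondrial genes were chosen after seeing the data. The cause of these shifts was not tested. Adding pseudogene counts was possible for H2AZ2 only. Depth limits CENPA most, with 413 counts in its lowest library.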

Other observations

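Genes that overlap or adjoin a variant did not always move with it. DPAGT1, 560 bases from the 5′ end of H2AX on the same strand, had a log2 fold change of 0.38 ± 0.16 (edgeR adjusted p = 0.0768). UNK shares 179 bases of exon with H3-3B on the opposite strand and fell by 1.00 on the log2 scale (edgeR adjusted p = 0.000957), where H3-3B rose. AIFM2 shares 986 bases with MACROH2A2 and had -0.08 ± 0.18 (adjusted p = 0.734). Without stated strandedness, reads in such shared exons cannot be assigned to one strand.

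The antisense neighbours of the other variants were low. H1-10-AS1 had 183 ± 88 normalized counts in Control and 205 ± 64 in DZNep (SD, n = 4). PITX1-AS1, which overlaps MACROH2A1, had 32.4 ± 16.05 and 37.0 ± 4.5. The divergent transcript H2AZ1-DT had 0.0 to 5.37 normalized counts in Control and 6.75 to 16.9 in DZNep, while H2AZ2-DT, 329 bases from H2AZ2, had 8.04 to 19.3 and 0.0 to 5.62. Neither passed the filter on low counts, so they were not tested.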
